A study of Homo sapiens with 4 samples.

Results

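The genes described here are those named as long intergenic noncoding RNA genes. A gene was taken if its symbol is LINC followed by 5 digits and its reads summed over the 4 libraries were at least 50. Of 60617 gene entries in the deposited table, 2253 carried such a symbol, and 254 of these reached 50 reads. A further 838 had 1 to 49 reads and 1161 had none. In the annotation used, 241 of the 254 were of lncRNA type, and 103 had exons that overlap those of another gene. The 254 identifiers share 252 symbols, since LINC03021 and LINC01605 each stand for 2 identifiers. The genes were chosen by their symbol and their summed reads, so the sums are given as a description. At the limit, LINC00598 (9 and 12 reads with DMSO, 17 and 12 with CBL0137) and LINC01094 (14 and 22 against 10 and 4) stood just inside at 50 reads. LINC02649 (22 and 4 against 8 and 15) and LINC01623 (0 and 4 against 22 and 23) stood just outside at 49.

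The cells were SKNMC, an established human Ewing sarcoma line grown in minimal essential medium with serum. Libraries came from cells held for 24 h in 1 µM CBL0137 (2 libraries) or in the DMSO vehicle alone (2 libraries). The compound, a curaxin, slides between DNA base pairs without cutting them and draws FACT, a histone chaperone, onto chromatin. The labels do not state whether libraries within a group were separate cultures, and p-values then describe only the spread between libraries, possibly technical. In bulk RNA fewer cells with a transcript and less of it per cell cannot be told apart. Reads in genes ranged from 19625517 to 21061892 per library. Ewing sarcoma markers were present with DMSO, from 33.1 ± 3.92 CPM for NKX2-2 to 1198 ± 6.83 CPM for CAV1 (SD, n = 2), with CD99 at 289 ± 14.0 CPM. The summed level of the 8 markers was 3032 to 3034 CPM with DMSO and 1290 to 1403 CPM with CBL0137, a gap held mostly by CAV1 (264 CPM with CBL0137) and CCND1 (1151 and 551 CPM). CD99 and NR0B1 fell as well, while FLI1 (0.02), NKX2-2 (0.23), LIPI (0.35) and STEAP1 (-0.24) were not called (log2 fold changes). CPM is the read count scaled to an effective library size of 1e6 reads. Of the markers of other cell types, CD3E, CD14, LYZ and VWF were under 0.4 CPM on average in each group, while the collagen gene COL1A2 (627 ± 3.81 CPM) and the leukocyte gene PTPRC (162 ± 0.299 CPM) were well above 0 with DMSO. The summed level of the blood list was 174 to 176 CPM with DMSO and 115 to 134 CPM with CBL0137, that of the epithelial list 51.2 to 52.0 and 113 to 114 CPM, that of the fibroblast list 939 to 947 and 1225 to 1232 CPM (COL1A1 rose from 123 to 456 CPM and LUM fell), and that of the endothelial list 2.42 to 2.80 and 4.05 to 4.79 CPM. The part of such genes in the results below was not tested.

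Long intergenic noncoding RNAs are transcripts of RNA polymerase II from their own genes between coding genes. Many are spliced and polyadenylated like mRNAs, yet most are scarce, stay largely in the nucleus and are removed quickly by the nuclear exosome. They are known for expression limited to particular tissues, and a LINC symbol followed by a number is given to a gene that has no name from a known function.

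Of the 254 LINC-named genes, 83 rose with CBL0137 and 46 fell, while 125 were not called. A call required an adjusted p under 0.05 (edgeR quasi-likelihood test, Benjamini-Hochberg adjustment over 17374 tested genes) and a fold above 1.5. Over all tested genes 18.2% were called higher and 15.1% lower, against 32.7% and 18.1% of the LINC-named genes. In either direction 33.4% of all genes and 50.8% of the LINC-named genes were called. Of other lncRNA genes 26.1% were called higher and 9.77% lower, or 26.9% and 9.85% of those with at least 50 reads. The median log2 fold change was 0.24 for the LINC-named genes and 0.01 for all tested genes. The log2 fold changes ran from -4.07 for LINC01116 to 5.95 for LINC00682. A change above 2-fold was called for 65 LINC-named genes upward and 38 downward, beside 1988 and 1218 of the 17374 tested genes. In 210 of the 254 genes (82.7%) the CPM values of the groups did not overlap, beside 79.9% over all tested genes. Both CBL0137 libraries stood above both DMSO libraries for 49.2% of LINC-named and 40.7% of all genes, and below them for 33.5% and 39.2%. Scaling by library size alone raised the all-gene median by 0.16 on the log2 scale. It gave 96 higher and 42 lower LINC-named genes, and raised the share of higher calls from 54.6% to 68.8% over all genes and from 64.3% to 69.6% among the LINC-named genes.

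**Figure D1:**
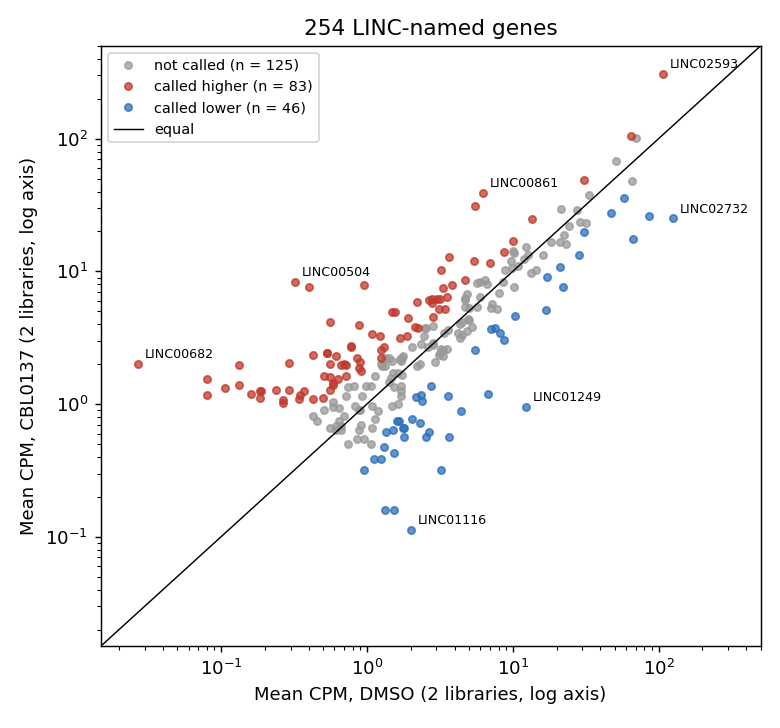
Mean CPM of the 254 LINC-named genes with DMSO (x axis) and CBL0137 (y axis), 2 libraries each, both axes logarithmic; each point is a gene, coloured by its call, and the line marks equal levels. The 83 genes called higher run from the low end of the DMSO axis to high levels such as that of LINC02593, the most read of the LINC-named genes. The 46 called lower spread over all but the lowest levels. For genes with fewer than 25 reads in a group, the read minimum fixed the direction of the summed reads.

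The read minimum itself bears on these counts, because a gene almost silent in one group could reach 50 reads through the other group alone. Fewer than 25 reads with DMSO were found for 44 genes, 34 of which were called higher, and fewer than 25 reads with CBL0137 for 13 genes, 9 of which were called lower. The read minimum fixed the direction of the summed reads of such genes, so they are no support for a direction. Among the 197 genes with at least 25 reads in each group, 49 were called higher (24.9%) and 37 lower (18.8%). All tested genes under the same condition gave 15% higher and 15.6% lower. LINC-named genes are also scarce, with a median of 190 summed reads, so other classes were set beside them at like read numbers. With 50 to 199 reads, 46 of 129 LINC-named genes (35.7%) were called higher, against 24.5% of 1270 other lncRNA genes and 32.0% of 1526 protein-coding genes. With 200 to 999 reads the shares were 33.3%, 33.0% and 28.8%. Of the 129 LINC-named genes with 50 to 199 reads, 75 had at least 25 reads in each group. Among these 75, 15 were called higher and 17 lower. The other classes were not counted by band under that condition. Lower calls among genes with 50 to 199 reads made up 20.2% of LINC-named, 8.50% of other lncRNA and 13.2% of protein-coding genes. The 26 LINC-named genes behind the first share became 16 without DMSO replicate 2, 17 without CBL0137 replicate 1, 12 with DESeq2 and 4 with log2(FPKM + 1), and the 46 higher calls became 26 with DESeq2 and 10 with log2(FPKM + 1). With 200 to 999 reads the shares of lower calls were 11.1%, 10.9% and 19.8%, where the 10 LINC-named genes became 15 when either DMSO library was left out. No test of these shares was made, and no class is said to differ from another.

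**Figure D2:**
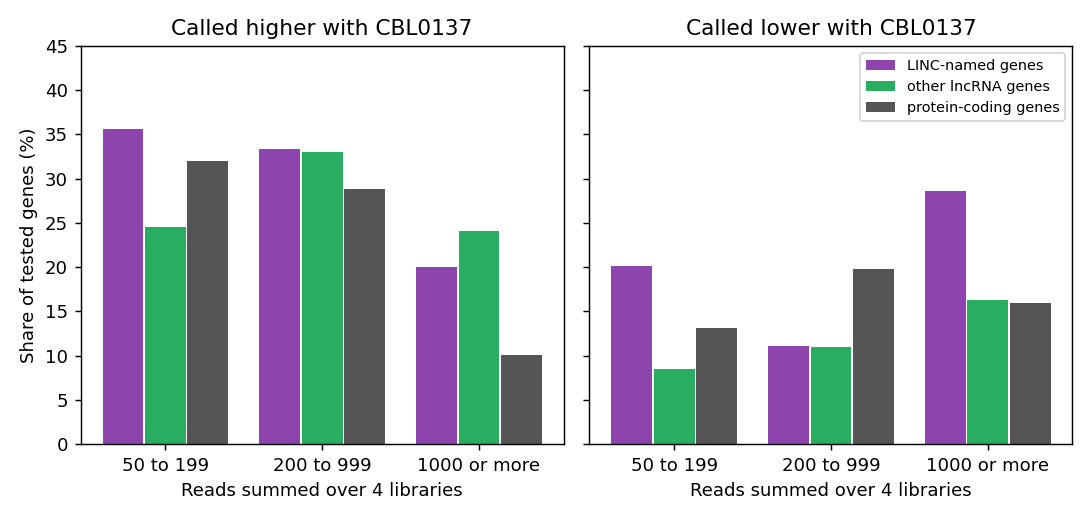
Share of tested genes called higher (left) and lower (right) with CBL0137, by reads summed over the 4 libraries (x axis), for LINC-named genes, other lncRNA genes and protein-coding genes; bars are counts of calls over genes tested in percent. In the band of 200 to 999 reads the LINC-named genes and the other lncRNA genes had 33.3% and 33.0% higher calls.

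Reads of the LINC-named genes made up 0.174% of all reads in genes in both DMSO libraries and 0.207% in both CBL0137 libraries. Much of that gap came from 1 gene, LINC02593, a transcript with a single annotated exon near the end of chromosome 1. Without it the group summed to 32752 and 32296 reads with DMSO and to 36041 and 37058 with CBL0137. Reads outside annotated genes also took a larger share of all counted reads with CBL0137 (10.3% and 10.2%) than with DMSO (8.52% and 8.82%), and the part of such reads in the LINC values was not tested.

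No LINC-named gene with 50 or more reads was without reads in a whole group, so none was seen in only one group. The nearest case was LINC00682 (ENSG00000245870, GRCh37 chromosome 4, 41874758 to 41884972, minus strand). It had 0 and 1 reads with DMSO and 46 and 43 with CBL0137. The ratio of its levels was 75.7, with a 95% counting interval from 13.2 to 3024, and its fitted log2 fold change, 5.95 ± 0.76 (SE; edgeR adjusted p = 6.1e-09), was 5.07 without DMSO replicate 1 and 8.41 without DMSO replicate 2. LINC02202 and LINC02102 each had 1 and 2 reads with DMSO. LINC02202 had 37 and 31 reads with CBL0137, a ratio of 19.3 (95% counting interval 6.33 to 95.8), and LINC02102 had 31 and 21, a ratio of 14.7 (4.77 to 73.8). LINC02202 and LINC02102 are named for their low DMSO counts, chosen after their values were seen. For LINC00682, LINC02202 and LINC02102 the read minimum fixed the direction of the summed reads. Their ratios and the adjusted p are therefore no support for a direction.

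Below the read minimum the picture was more mixed. Reads were seen only with CBL0137 for 230 LINC-named genes and only with DMSO for 169. Most had few reads, and 15 of the former and 5 of the latter reached 10. LINC01160 had the most, with 14 and 13 reads with CBL0137 and 0 in both DMSO libraries, at least 7.66-fold higher against a floor of 3 reads over the DMSO group. LINC02965 had 7 and 12 reads with DMSO and 0 in both CBL0137 libraries, at least 7.44-fold lower against the same floor over the CBL0137 group. Of these genes, LINC01160 and LINC02965 were chosen after their values were seen. A read was seen for 710 and 705 LINC-named genes with DMSO and for 784 and 778 with CBL0137. At the common depth of 19625517 reads the expected numbers were 706 and 705 against 775 and 768. The counts of genes seen in only one group were not corrected for depth. Neither kind of count was made for other genes, so none is said to be particular to LINC-named genes.

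Promoter windows of a few genes are printed here: those of the highest and lowest log2 fold change, of the gene with most reads, of a steep rise from few reads, and of a gene called higher and one called lower with a GGAAGGAA match. The windows run from 250 bases before to 50 after a RefSeq start, 5′ to 3′ on the strand of the gene, in GRCh38.p14 coordinates. Capitals mark matches to GGAAGGAA (tandem copies of the ETS core that EWSR1-FLI1 is known to bind), TATAAA, TGACGTCA or CGCG on either strand. The first, LINC00682 at chr4:41882562-41882861 on the minus strand, is the gene with the highest log2 fold change, and it is poor in G and C (34.0%).
LINC00682: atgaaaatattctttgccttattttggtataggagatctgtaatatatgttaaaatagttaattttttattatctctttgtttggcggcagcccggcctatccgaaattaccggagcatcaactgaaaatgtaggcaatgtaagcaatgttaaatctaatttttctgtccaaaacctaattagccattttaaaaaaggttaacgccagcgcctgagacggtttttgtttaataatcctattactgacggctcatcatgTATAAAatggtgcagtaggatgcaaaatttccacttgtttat
LINC02913, at chr9:129320766-129321065 on the plus strand, was nearly silent with DMSO in 1 library and holds no match.
LINC02913: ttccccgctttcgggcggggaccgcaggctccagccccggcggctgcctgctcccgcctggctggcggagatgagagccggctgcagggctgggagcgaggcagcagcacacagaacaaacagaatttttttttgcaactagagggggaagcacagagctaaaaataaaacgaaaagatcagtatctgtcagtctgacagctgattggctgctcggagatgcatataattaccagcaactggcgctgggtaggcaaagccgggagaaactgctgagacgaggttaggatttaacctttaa
LINC01770, at chr1:1434524-1434823 on the minus strand, rose and has a GGAAGGAA match on the opposite strand and a pair of CGCG matches.
LINC01770: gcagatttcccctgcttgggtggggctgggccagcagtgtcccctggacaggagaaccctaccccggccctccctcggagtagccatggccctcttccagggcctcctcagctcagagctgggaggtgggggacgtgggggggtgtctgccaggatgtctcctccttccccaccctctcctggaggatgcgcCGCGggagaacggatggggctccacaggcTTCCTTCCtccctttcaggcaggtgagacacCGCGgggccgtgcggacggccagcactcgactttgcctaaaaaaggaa
LINC02593, at chr1:919643-919942 on the minus strand, is the LINC-named gene with most reads and holds no match.
LINC02593: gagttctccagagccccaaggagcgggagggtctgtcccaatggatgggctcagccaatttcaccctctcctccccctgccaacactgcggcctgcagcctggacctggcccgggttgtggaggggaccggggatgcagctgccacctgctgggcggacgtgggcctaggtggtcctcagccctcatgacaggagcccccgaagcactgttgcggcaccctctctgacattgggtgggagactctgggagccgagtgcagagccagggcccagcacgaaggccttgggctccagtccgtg
LINC01116, at chr2:176637560-176637859 on the minus strand, is the gene with the lowest log2 fold change, and its window is rich in G and C (72.7%).
LINC01116: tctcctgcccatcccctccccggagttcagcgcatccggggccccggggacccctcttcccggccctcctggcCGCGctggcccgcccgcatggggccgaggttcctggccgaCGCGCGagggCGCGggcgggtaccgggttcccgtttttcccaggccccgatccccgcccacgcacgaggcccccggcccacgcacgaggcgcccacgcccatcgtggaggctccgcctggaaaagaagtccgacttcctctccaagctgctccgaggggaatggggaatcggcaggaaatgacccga
LINC00920, at chr16:66408274-66408573 on the plus strand, fell and has a GGAAGGAA match on its own strand.
LINC00920: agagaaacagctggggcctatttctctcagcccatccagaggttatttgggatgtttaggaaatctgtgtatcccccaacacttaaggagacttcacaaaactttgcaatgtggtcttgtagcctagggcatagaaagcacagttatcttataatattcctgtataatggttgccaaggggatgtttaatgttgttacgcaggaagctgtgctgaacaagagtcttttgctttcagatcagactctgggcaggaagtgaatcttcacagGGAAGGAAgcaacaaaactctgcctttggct

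RefSeq windows were found for 156 of the 252 symbols, 179 windows in all. GGAAGGAA occurred in 7 of them (3.91%), beside 3.67% of all 35116 promoter windows of the same length. By call, 1 of 52 windows of genes called higher held it (LINC01770) and 1 of 32 of genes called lower (LINC00920). TATAAA was found in 11.2% of the LINC windows and 11.5% of all windows, TGACGTCA in 4.47% and 1.85%, and CGCG in 50.3% and 49.9%. CGCG was present in 22 of 52 windows of genes called higher, 9 of 32 of genes called lower and 59 of 95 of genes not called. The median number of CG dinucleotides was 11 for genes called higher, 3.5 for genes called lower and 15 for those not called. Some genes have several windows, and a match is a description of letters, not a bound site.

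Among genes whose mean log2 CPM was 0 or more, the steepest rises included LINC00504, LINC02913, LINC01284, LINC01993 and LINC02614 after LINC00682. LINC00504 (ENSG00000248360, GRCh37 chromosome 4, 14472089 to 14889793, minus strand) had 0.317 and 0.322 CPM with DMSO and 9.38 and 7.36 CPM with CBL0137. Both treated libraries stood above both vehicle libraries, which the naming rule required. The log2 fold change was 4.68 (SE 0.32, edgeR adjusted p = 1.5e-16). LINC02913 (ENSG00000179082, chromosome 9, 132083295 to 132087184, plus strand) had 2 and 13 reads with DMSO and 187 and 151 with CBL0137. Its DMSO libraries differed from each other several times over, and the log2 fold change of 4.24 (SE 0.34) was 3.43 without DMSO replicate 1 and 6.09 without DMSO replicate 2. LINC01503, 7.40 kb from LINC02913, was not called (log2 fold change -0.47). LINC00504 and LINC02913 had so few DMSO reads that the read minimum fixed the direction of their summed reads. Their separation and the adjusted p above are therefore no support for a direction.

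LINC01284 (chromosome X, 50838682 to 50967262, minus strand) had 0.0529 and 0.215 CPM with DMSO and 2.09 and 1.85 CPM with CBL0137, a log2 fold change of 3.83 (SE 0.57) that was 3.15 without DMSO replicate 1 and 5.06 without DMSO replicate 2. LINC01993 (chromosome 17, 76257430 to 76274573, minus strand) stood at 0.957 ± 0.366 CPM with DMSO and 7.91 ± 1.01 CPM with CBL0137 (SD, n = 2; log2 fold change 3.04, SE 0.26). LINC02614, with 21 merged exons on chromosome 3 (125546081 to 125635227, minus strand), stood at 0.559 ± 0.182 and 4.19 ± 0.714 CPM (2.89, SE 0.35). In all of these the groups did not overlap, which the rule for naming them required. LINC03068 (chromosome 10) was less even, with 10 and 1 reads with DMSO and 33 and 57 with CBL0137. Its log2 fold change of 2.77 (SE 0.53) was 5.08 without DMSO replicate 1 and 1.92 without DMSO replicate 2, and it was not called with FPKM. LINC02870, 2.84 kb from LINC03068, rose as well (1.61). LINC01284, LINC02614 and LINC03068 had so few DMSO reads that the read minimum fixed the direction of their summed reads. These 3 genes are therefore no support for a direction.

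LINC00861 and LINC02964 overlap on opposite strands of chromosome 8 (126871965 to 127305033 on minus, 126660571 to 127021174 on plus) and were the best measured of the steep rises. LINC00861 had 6.03 and 6.45 CPM with DMSO and 38.6 and 39.7 CPM with CBL0137, and its log2 fold change was 2.65 ± 0.11 (SE; edgeR adjusted p = 1.7e-23). LINC02964 had 4.49 and 6.50 CPM with DMSO and 30.6 and 31.8 CPM with CBL0137, a log2 fold change of 2.51 (SE 0.13). Their exons overlap, and as no source used here gives the strand setting of the counting, reads of the pair cannot be told apart with certainty. LINC01770 (ENSG00000225285, chromosome 1, 1365919 to 1369953, minus strand) had 0.370 and 0.484 CPM with DMSO and 2.37 and 2.30 CPM with CBL0137, a log2 fold change of 2.44 (SE 0.42). It lies 0.284 kb from TMEM88B (log2 fold change 2.51, called higher) and opposite the start of VWA1 (1.51, called higher). LINC01770 had so few DMSO reads that the read minimum fixed the direction of its summed reads. Its rise is therefore no support for a direction.

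**Figure D3:**
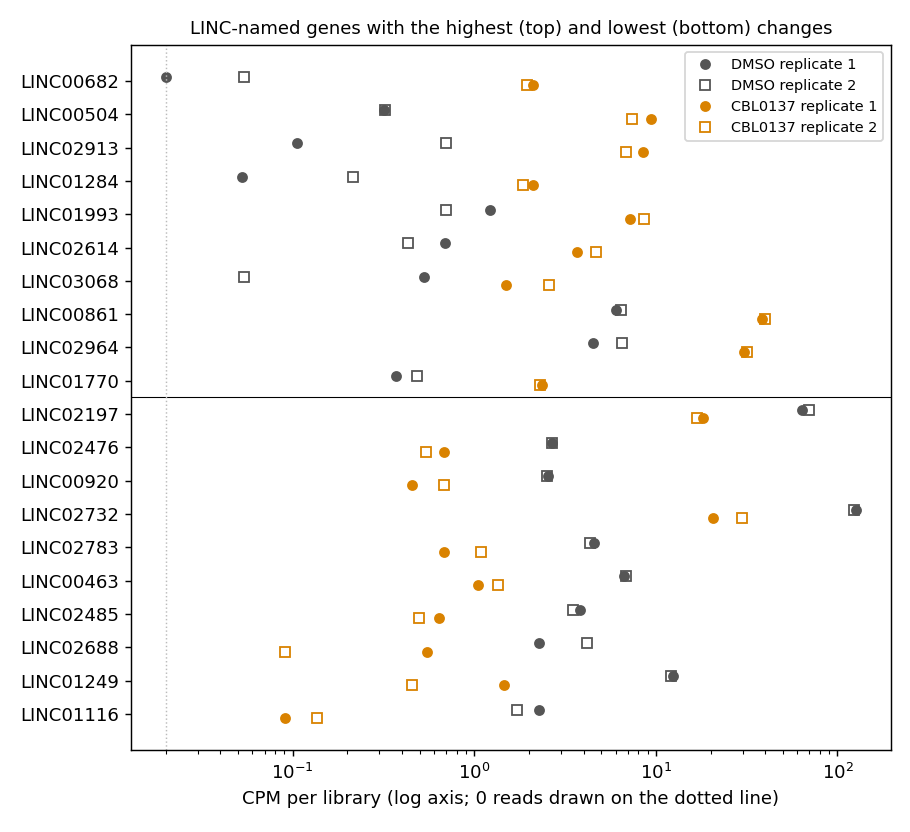
CPM in each of the 4 libraries (x axis, logarithmic) for the 10 steepest rises and the 10 steepest falls under the naming rule (y axis); circles are replicate 1 and open squares replicate 2, and 0 reads is drawn on the dotted line. The replicates of LINC00861 nearly coincide, while those of LINC02913 with DMSO and LINC02688 with CBL0137 stand apart.

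LINC01116 showed the steepest fall. This gene (ENSG00000163364, chromosome 2, 177476165 to 177502659, minus strand) lies near the HOXD cluster of developmental transcription factor genes. It had 2.27 and 1.72 CPM with DMSO and 0.0910 and 0.135 CPM with CBL0137. These are 43 and 32 reads against 2 and 3, and the log2 fold change was -4.07 (SE 0.57, edgeR adjusted p = 5.8e-08). LINC01117, which overlaps it on the opposite strand, fell by 0.99 on the log2 scale (SE 0.35), so that reads of the 2 genes may be mixed. LINC01249 (chromosome 2, 4675806 to 4704088, minus strand) had 236 and 225 reads with DMSO and 32 and 10 with CBL0137. Its log2 fold change of -3.68 (SE 0.24) was -4.75 without CBL0137 replicate 1 and -3.08 without CBL0137 replicate 2. LINC02688 (chromosome 11, 1049880 to 1055749, plus strand) had 43 and 78 reads against 12 and 2. Its log2 fold change of -3.32 (SE 0.46) was -5.07 without CBL0137 replicate 1 and -2.56 without CBL0137 replicate 2. LINC01116 and LINC02688 had so few CBL0137 reads that the read minimum fixed the direction of their summed reads. Their falls are therefore no support for a direction.

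Other steep falls were those of LINC02485 (-2.67, SE 0.35), LINC00463 (-2.49, SE 0.25), LINC02783 (-2.32, SE 0.31), LINC00920 (-2.15, SE 0.39) and LINC02476 (-2.13, SE 0.37). With log2(FPKM + 1), LINC01249, LINC02688, LINC02485 and LINC00920 were not called. LINC00463 (chromosome 13, 25746957 to 25754217, minus strand) had 6.66 and 6.88 CPM with DMSO and 1.05 and 1.35 CPM with CBL0137. It lies 0.531 kb from AMER2, a gene on the same strand whose product regulates Wnt signalling and which also fell (-1.47). LINC00920 lies 3.73 kb from the end of the cadherin gene CDH5 on the same strand. CDH5 rose (1.05, SE 0.30) while LINC00920 fell.

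Abundant members moved too, in both directions. LINC02593 (ENSG00000223764, chromosome 1, 852245 to 856396, minus strand) held 17620 of the reads, 11.3% of all reads of the LINC-named genes. It had 112 and 103 CPM with DMSO and 320 and 297 CPM with CBL0137, and its log2 fold change was 1.52 ± 0.06 (SE; edgeR adjusted p = 4.3e-25). LINC02593 overlaps no other annotated gene, and its nearest coding gene SAMD11, 2.91 kb away on the other strand, was at 0.22 and was not called. LINC02732 (ENSG00000254416, chromosome 11, 110225855 to 110278337, plus strand) had 127 and 123 CPM with DMSO and 20.7 and 29.8 CPM with CBL0137, and its log2 fold change was -2.31 ± 0.08 (SE; edgeR adjusted p = 1.9e-25). It too overlaps no other annotated gene, and the nearest coding gene, FDX1, was not called (-0.35). LINC02197 (chromosome 5, 70633009 to 70742599, minus strand) stood at 66.7 ± 4.49 CPM with DMSO and 17.6 ± 0.930 CPM with CBL0137 (SD, n = 2; -1.92, SE 0.08).

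Among the 35 genes with 1000 or more reads, 7 rose (20%) and 10 fell (28.6%), with a median log2 fold change of -0.14. In that band 24.1% of other lncRNA genes were called higher and 16.3% lower, and 10.1% and 16.0% of protein-coding genes. That median turned to 0.02, with 10 higher and 8 lower, with library size alone, and to 0.03 with FPKM. LINC00205 (chromosome 21, 46707950 to 46717721, plus strand), chosen after its values were seen, rose from 64.4 ± 2.28 to 105 ± 1.50 CPM (0.70, SE 0.06). Per kilobase of merged exons, averaged over both groups, LINC00680 led with 72.0 CPM per kb, ahead of LINC02593 (50.03), LINC02732 (32.3), LINC00888 (29.0), LINC03006 (17.3), LINC01145 (14.6), LINC02990 (12.4) and LINC02197 (12.1). The order depended on the group: LINC02732 was at 53.8 CPM per kb with DMSO and 10.9 with CBL0137, and LINC02593 at 25.8 and 74.2. The levels of LINC00680, LINC00888, LINC03006 and LINC01145 rest on annotated exons of 181, 421, 248 and 143 bases, and these genes are annotated as transcribed pseudogenes, so that their levels per kilobase are uncertain. None of the 4 was called, at log2 fold changes of 0.07, 0.51, -0.12 and -0.18, though LINC00888 was with library size alone (0.67) and with log2(FPKM + 1) (0.63). LINC01145 was called with log2(FPKM + 0.1) (-1.34), and LINC03006 turned to 0.94 and 1.44 with log2 FPKM plus 1 and plus 0.1. In the authors' deposited table LINC02593 had an FPKM of 17.0 and 15.7 with DMSO, and LINC02732 had 38.3 and 37.03. LINC02990 (chromosome 8, 144494919 to 144499224, plus strand), 2.13 kb from the transcription factor gene MAFA, rose from 3.25 ± 0.264 to 10.3 ± 0.281 CPM (1.66, SE 0.18), and MAFA rose as well (2.21).

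Several LINC-named genes have been studied in cancer or the nervous system, and 7 of 12 in a fixed set reached the read minimum. LINC00662 (chromosome 19, 28171980 to 28284913, minus strand) had 88.5 and 83.8 CPM with DMSO and 24.8 and 27.4 CPM with CBL0137, a fall of 1.72 on the log2 scale as fitted (log2 fold change -1.72, SE 0.07). LINC02987, which overlaps LINC00662 on the opposite strand, was not called (0.31), and their reads may be mixed. LINC00632, the gene from which the circular RNA CDR1-AS is made (chromosome X, 139791727 to 139875380, plus strand), fell from 47.1 ± 2.74 to 27.7 ± 1.90 CPM (-0.76, SE 0.08), and was not called with FPKM. Counts per gene do not separate circular from linear RNA. LINC00665 (0.18, SE 0.08, adjusted p = 0.062) and LINC00339 (-0.12, SE 0.22) were not called. LINC00963 had a narrow spread, at 51.2 ± 0.246 and 67.9 ± 0.468 CPM, and its rise of 0.41 ± 0.07 on the log2 scale (SE; edgeR adjusted p = 1.0e-06) stayed under the fold limit. LINC00461, which hosts a copy of the neural microRNA miR-9, was at 4.87 ± 0.962 and 6.80 ± 0.678 CPM (0.48, SE 0.19), also under the limit. It was called with library size alone (0.64) and without DMSO replicate 1 (0.68), and its direction turned with log2(FPKM + 1) (-0.14) and log2(FPKM + 0.1) (-0.49). LINC00511 had 11 reads in all, LINC00467 had 3, and LINC00261 and LINC00839 had 0. LINC00473 matched no identifier and was not analysed here.

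**Figure D4:**
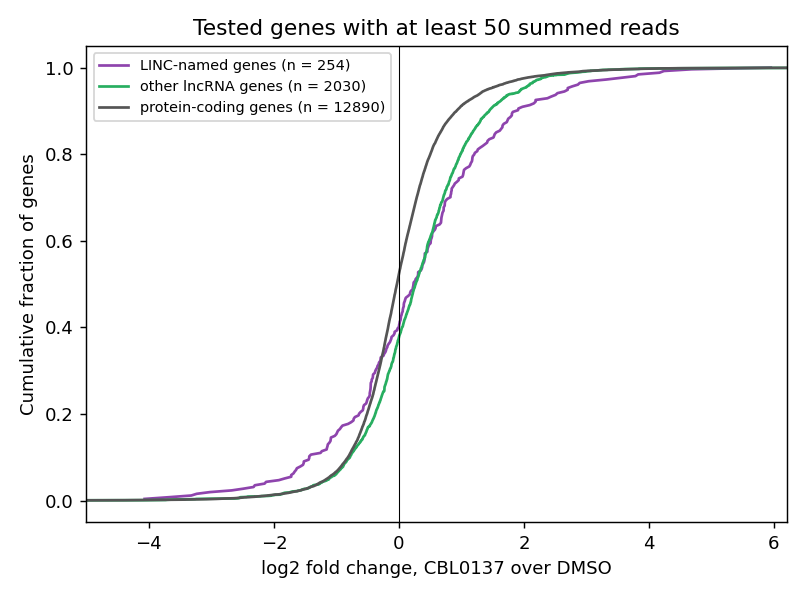
Cumulative fraction of tested genes with at least 50 summed reads (y axis) against the log2 fold change of CBL0137 over DMSO (x axis) for 254 LINC-named, 2030 other lncRNA and 12890 protein-coding genes. Of the LINC-named genes 153 lie above 0 and 101 below, around a median of 0.24.

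The span and base composition of the genes were set beside the calls. The median span was 16.2 kb for the LINC-named genes called higher, 43.4 kb for those called lower and 12.4 kb for those not called. Over all tested genes the medians were 17.1, 35.9 and 26.99 kb. The median GC content of the longest transcript was 49.04%, 42.6% and 46.4% in the same order, and 53.6%, 44.8% and 47.2% over all tested genes. In the fifth of genes poorest in GC, 16 of 54 LINC-named genes were called higher (29.6%) and 16 lower (7 and 4 with log2(FPKM + 1)), whereas 8.95% of all genes there were called higher and 20.02% lower. In the fifth richest in GC, 12 of 27 were higher (44.4%) and 3 lower (5 without DMSO replicate 2, 1 with log2(FPKM + 1)), against 32.1% and 8.43% of all genes. Of the 54 LINC-named genes poorest in GC, 42 had at least 25 reads in each group. Of these 42, 9 were called higher and 14 lower. Of the 27 richest in GC, 20 met that condition, and 7 of them were called higher and 2 lower. For the remaining LINC-named genes the read minimum fixed the direction of the summed reads, so the shares above rest partly on such genes. No count of all genes by GC content was made under that condition. The part of GC content and span in the calls was not tested.

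The position beside coding genes was described next, since a LINC gene may share a start region with a coding gene or follow its end. A coding gene started within 1 kb on the opposite strand for 21 LINC-named genes, of which 12 were called higher (18.2% over all genes) and 1 lower (LINC01473, -1.43), with a median log2 fold change of 0.84. Of the 17 with at least 25 reads in each group 8 were called higher and 1 lower. The 1 lower call became 2 without DMSO replicate 1, without CBL0137 replicate 1 or without CBL0137 replicate 2. Among the 12 were LINC02202 opposite the transcription factor gene EBF1 (4.17 against -0.37), LINC01126 opposite the RNA-binding protein gene ZFP36L2 (1.51 against 0.28) and LINC01089 opposite the histone methyltransferase gene SETD1B (0.86 against 0.58). The coding partner was called higher in 2 of these 12 pairs, VWA1 with LINC01770 and CEP68 with LINC02245, and lower in 2, PAQR3 with LINC01088 (-0.85) and RPL21 with LINC00412 (-0.77). With FPKM 7 of the 21 were called higher, and with DESeq2 8. By contrast, a coding gene ended within 10 kb upstream on the same strand for 27 LINC-named genes, and 2 of these rose and 4 fell (median 0.0018, 0.16 with library size alone, -0.23 without DMSO replicate 1). Without CBL0137 replicate 2 these counts were 1 and 5, and with library size alone 4 and 4. The difference between these sets was not tested.

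Of the 33 genes that overlap a coding gene 15 rose and 0 fell, against 18.2% and 15.1% over all tested genes, with 1 lower without DMSO replicate 1 or without CBL0137 replicate 2. The 15 became 10 with DESeq2, 6 with log2(FPKM + 1) and 8, beside 1 lower, with log2(FPKM + 0.1). Of the 30 with at least 25 reads in each group 13 rose and 0 fell. The strand setting of the counting is not given, so reads of the overlapping coding genes may enter these values. The part of such reads was not tested. Members of this set were LINC01359, which overlaps the kinase gene JAK1 on the same strand (1.74 against -0.73, both called), LINC01011 with NQO2 (1.26 against 0.12) and LINC00472 with OGFRL1 on the opposite strand (1.20 against -0.38). Within 5 kb 14 of 50 rose and 6 fell, from 5 to 50 kb 29 of 91 rose and 20 fell, and farther away 25 of 80 rose and 20 fell, the last count being 13 without CBL0137 replicate 1 and 12 with DESeq2. With at least 25 reads in each group, 9 of 40 rose and 5 fell within 5 kb. From 5 to 50 kb 15 of 66 such genes rose and 15 fell, and farther away 12 of 61 rose and 17 fell. In 208 pairs with a tested coding neighbour, 11 were called higher together, 7 lower together and 17 in opposite directions. Across these pairs, which share all 4 libraries and 193 coding genes, Pearson's r of the log2 fold changes was 0.10 and Spearman's rho 0.16. They were -0.21 and -0.13 for overlapping neighbours (25 pairs), 0.27 and 0.32 within 5 kb (49 pairs), 0.24 and 0.30 from 5 to 50 kb (72 pairs), and -0.08 and -0.12 farther away (62 pairs). The pairs were not restricted to LINC-named genes with at least 25 reads in each group. They include genes such as LINC01770 whose direction the read minimum fixed, so the pair counts and correlations are a description only. LINC00968 and PENK, the gene of an opioid peptide precursor, fell alike (-1.72 and -1.73), at 47.6 kb from each other. LINC00629 (1.68) and PLAC1 (-1.97) went opposite ways at 5.44 kb. Of the 254 genes 162 overlap some annotated gene, 131 of them one on the opposite strand. Among the 92 without any overlap 34 rose and 17 fell. Of the 68 of these with at least 25 reads in each group 19 rose and 14 fell.

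**Figure D5:**
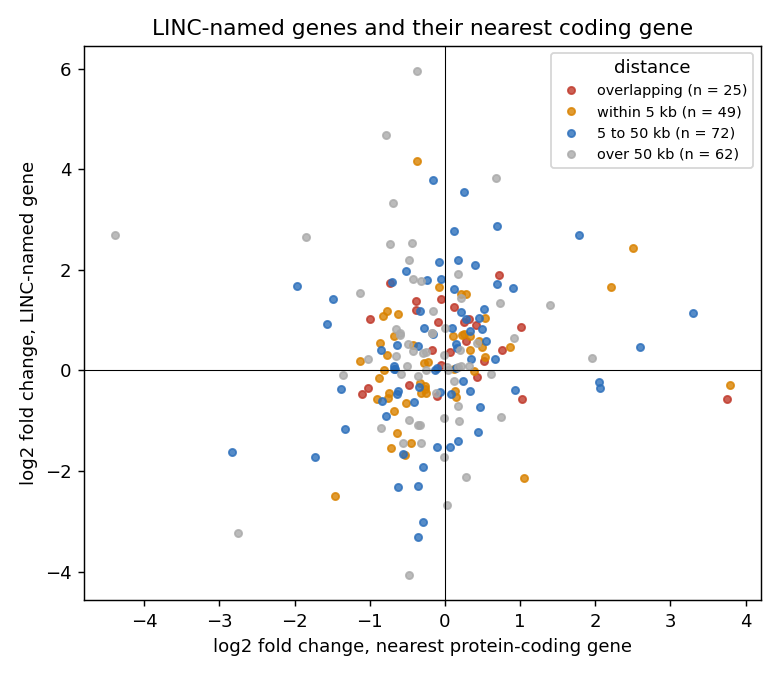
log2 fold change of each LINC-named gene (y axis) against that of its nearest protein-coding gene (x axis) for the 208 pairs with both genes tested, coloured by the distance between the gene bodies. Points fill all 4 quadrants, with 17 pairs called in opposite directions and 18 called in the same direction. LINC-named genes whose direction the read minimum fixed are included.

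Genes whose products release, process or remove intergenic transcripts were described as groups. Of 13 genes of the nuclear exosome, the 3′ to 5′ RNA degradation complex, 4 fell (15.1% of all genes were called lower) and 0 rose, with a median log2 fold change of -0.10 that was 0.06, with 2 lower, with library size alone. The 4 were MPHOSPH6 (-1.05), EXOSC8 (-0.96), EXOSC9 (-0.72) and EXOSC5 (-0.63). Among 12 cofactors that bring RNA to the exosome, ZFC3H1 (0.92, SE 0.05) and ZC3H3 (0.93, SE 0.07), both of the branch that handles polyadenylated nuclear RNA, rose, and ZCCHC8 (-0.59) and TENT4B (-0.59) fell, though not with library size alone. ZFC3H1 had 106 ± 0.9499 CPM with DMSO and 202 ± 4.09 CPM with CBL0137 (SD, n = 2). Of 15 Integrator genes, whose complex ends many short and noncoding transcripts early, 4 fell and 0 rose (2 and 2 with library size alone). INTS13 fell the most, from 92.3 ± 1.89 to 38.3 ± 2.48 CPM (-1.27, SE 0.07). Of 20 genes of cleavage, polyadenylation and termination 2 fell, CPSF4 (-1.19) and CPSF2 (-0.76), and 0 rose (2 with library size alone).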

How the data were processed

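RNA-seq compared SKNMC cells after 24 h in 1 µM CBL0137 or in DMSO, with 2 libraries per group assigned from the sample titles. The authors deposited read counts from HTSeq 0.11.1 and FPKM values, made after trimming (Trim Galore) and alignment to hg19 (HISAT2), per the series' design text. The submitters' processing notes also name mm10, without its use. Not given in the sources used here: annotation release, strand setting and FPKM tool. The 6 entries that name no gene were left out. Symbols came from a separate list (41078 identifiers named), positions from GENCODE release 44 on GRCh37.

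Counts and FPKM do not follow from each other by scaling: 5103 genes without counts had an FPKM above 0, and 76 the reverse. Deposited counts were tested with edgeR 4.0.16 in R 4.3.3 (TMM, filterByExpr, quasi-likelihood F test) over 17374 genes, all 254 members included. Standard errors were taken from the fold change and the F statistic (absolute log2 value over root F). On simulated counts for this comparison, beside 16731 unchanged genes, 83 of 100 genes changed by 1 on the log2 scale were called, and 97 of 100 changed by 2. The changed genes were drawn at random from all tested genes, and every gene was given the common dispersion of 0.0017. These shares were not measured for LINC-named genes alone, whose median was 190 summed reads. Alternatives used DESeq2 1.42.0, limma 3.58.1 on log2(FPKM + 1), other scalings and filters, a replicate block and each library left out. Counts over members with at least 25 reads in each group were added after seeing the data. The replicate numbers did not pair the libraries (correlation of deviations -0.0015). Single values outside the model carry no p, since 2 against 2 cannot go below 0.333. Counting intervals are exact and, like floors, cover counting error only. Replicates differed by more than sampling noise (chi-square per degree of freedom 2.95 and 2.68).

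The genes and lists were chosen with earlier results of these data known. Named genes are the 10 highest and 10 lowest log2 fold changes among called genes whose mean log2 CPM is 0 or more and whose groups do not overlap, the 8 highest in CPM per kb, genes at the read limit and a fixed set; others were named after their values were seen.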

Additional observations from a re-analysis of the deposited data

How the results depend on the processing

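Of the members called, 52 higher and 30 lower kept their call with every scaling, DESeq2, no filter on low counts, the replicate block and each library left out. Among them are genes such as LINC00682, LINC00504 and LINC01116, where the read minimum fixed the direction of the summed reads. For such genes a kept call is no support for a direction. The kept calls were not counted apart for members with at least 25 reads in each group. The member counts of 83 higher and 46 lower became 56 and 32 with DESeq2, 68 and 38 with no filter on low counts, 77 and 42 with at least 1 CPM in 2 libraries, and 82 and 46 with the replicate block. They ranged from 70 to 79 and from 37 to 49 with 1 library left out. With log2(FPKM + 1), over 232 members, they were 32 and 15, and with log2(FPKM + 0.1) 46 and 24. The added constant draws low genes toward 0. Members with at least 200 reads gave 37 and 20, as fewer genes were counted. Members seen in 1 group only went from 0 to 1 when up to 2 reads were allowed.

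The member median of 0.24 became 0.30 with upper-quartile factors, 0.39 when scaled by library size alone, 0.30 with at least 1 CPM in 2 libraries, 0.094 with log2(FPKM + 1), and 0.18 to 0.29 with 1 library left out. All genes had 3166 higher and 2632 lower calls, 2072 and 1519 with log2(FPKM + 1), 5347 and 5375 when no fold was required, 1988 and 1218 when a 2-fold change was, and 2699 to 2974 and 2418 to 2655 with 1 library left out. With the replicate block they were 3129 and 2612, and the block changed the call of none of the named genes.

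Sign changes occurred only in named genes that were not called: LINC00680 (0.15 without CBL0137 replicate 1, -0.0067 without DMSO replicate 2, -0.026 without CBL0137 replicate 2), LINC03006 (0.041 with library size alone, 0.94 and 1.44 with log2 FPKM plus 1 and plus 0.1), LINC01145 (-0.53 without CBL0137 replicate 1, 0.092 without CBL0137 replicate 2), LINC00598 (-0.049 without CBL0137 replicate 1, 0.46 without CBL0137 replicate 2), LINC00339 (0.037 with library size alone, 0.088 without DMSO replicate 1, -0.33 without DMSO replicate 2) and LINC00461 (-0.14 and -0.49 with log2 FPKM plus 1 and plus 0.1). LINC01094 lost its call with DESeq2 (-1.61), with no filter (-1.60) and without DMSO replicate 2 (-1.22) or CBL0137 replicate 2 (-1.07). With log2(FPKM + 1), LINC03068, LINC01249, LINC02688, LINC02485, LINC00920, LINC01094 and LINC00632 were not called, and with log2(FPKM + 0.1) LINC01145 was (-1.34). The causes were not tested. Depth limits the scarcest genes most, since 73 members had under 100 reads in all.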
